A study of Danio rerio with 6 samples.

Results

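The pools of larval zebrafish gut compared here differed in how much liver transcript they carried. The pools were chosen by the measured level of *fabp10a*, in CPM, its count scaled to the total of the library and by the trimmed mean of M values (TMM). A pool was called liver-rich where *fabp10a* was above 1000 CPM and liver-poor where it was below 600 CPM. This rule placed 3 of the 6 pools in each class. Scaled to library totals alone the classes were the same, the pools nearest to the thresholds being at 1431 CPM (BSA 2) and 480.2 CPM (BSA 3). The liver-rich pools were rzIl26 replicates 2 and 3 and BSA replicate 2, and the liver-poor pools were rzIl26 replicate 1 and BSA replicates 1 and 3. Below, a library is named by its injection and replicate number, such as rzIl26 2. All larvae were wild-type (WT) and 5 days post-fertilization (dpf) old. They were injected with recombinant zebrafish IL-26 (rzIl26), a cytokine made as a protein, or with bovine serum albumin (BSA), the control protein, and guts were dissected 1 h later. Each library pooled 10 to 15 guts and the labels call the 3 libraries of an injection biological replicates. The injection comparison asked which gut transcripts respond early to added IL-26, and the liver classes were added here from measured values.

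The liver lies beside the anterior gut of the larva and may come along when the gut is dissected. Hepatocytes secrete most plasma proteins, among them lipid and metal carriers, clotting factors and complement, and they break down amino acids, store glycogen and make bile acids. Many enzymes and transporters of hepatocytes are also made by enterocytes, the absorptive cells of the gut. In pooled tissue, fewer cells of a type and less RNA per cell cannot be told apart, so a liver-rich pool is a pool with more liver transcript and not a measured amount of liver. The labels record no liver content, and they name gut as the tissue of every library.

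Libraries held 15156164 to 22219894 counts, with counts in 12323 to 12613 of 16134 RefSeq transcripts, and 10576 transcripts passed the filter on low counts. The 2 injections were unequal in class, with 2 of 3 rzIl26 pools and 1 of 3 BSA pools liver-rich. For this reason every difference between classes below was estimated with injection held fixed, on the log2 scale, as liver-rich minus liver-poor. Because *fabp10a* chose the classes, those differences are descriptions without p-values. For some genes they are given with the same difference inside the rzIl26 pools (rzIl26 2 and 3 over rzIl26 1) and inside the BSA pools (BSA 2 over BSA 1 and 3). No 2 libraries were alike within sampling noise, the lowest chi-square per degree of freedom between a pair being 18.6. One liver-poor library, rzIl26 1, was often the lowest, but not in every liver list. It was the lowest of the 6 libraries for 93 of the 162 transcripts called liver-rich below (57.4%), where the rule on overlap leaves only the 3 liver-poor pools as candidates for the lowest, and it was also the lowest in summed pancreatic transcripts. The 162 summed to 12080 CPM in rzIl26 1 and to nearly the same, 12280 CPM, in BSA 3. rzIl26 1 was the lowest library for 16.3% of all transcripts and for 65 of 173 liver list genes (37.6%). Among these it was the lowest for 20 of 36 plasma carriers and inhibitors and 15 of 34 amino acid enzymes. The same held for 6 of 15 clotting genes and 4 of 19 complement genes. The complement sum of rzIl26 1, 786.1 CPM, was the highest of the liver-poor pools.

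The 3 hepatocyte markers followed the class. *fabp10a*, the fatty acid binding protein of hepatocytes, was at 1711 CPM in rzIl26 2, 1532 CPM in rzIl26 3 and 1525 CPM in BSA 2, against 271.9 CPM in rzIl26 1, 415.7 CPM in BSA 1 and 490.1 CPM in BSA 3. The pools nearest to the thresholds were therefore BSA 2 inside the liver-rich class and BSA 3 inside the liver-poor class, and no pool lay between. The means were 1590 ± 105 CPM in liver-rich and 393 ± 111 CPM in liver-poor pools (SD, n = 3 each), a difference of 2.16 or 4.48-fold. *tfa*, the plasma iron carrier transferrin, had 2665, 2510 and 2015 CPM in the liver-rich libraries in the same order and 544.2, 635.7 and 748.9 CPM in the liver-poor ones, a difference of 1.90. *apoa2*, an apolipoprotein of high-density lipoprotein, had 4061, 4411 and 4039 CPM against 2005, 2010 and 1686 CPM, a difference of 1.1. The classes cannot overlap in *fabp10a*, which set them, and they did not overlap in *tfa* or *apoa2*. For *fabp10a* the difference was larger inside the rzIl26 pools (2.57) than inside the BSA pools (1.76), with rzIl26 1 the lowest library.

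**Figure D1:**
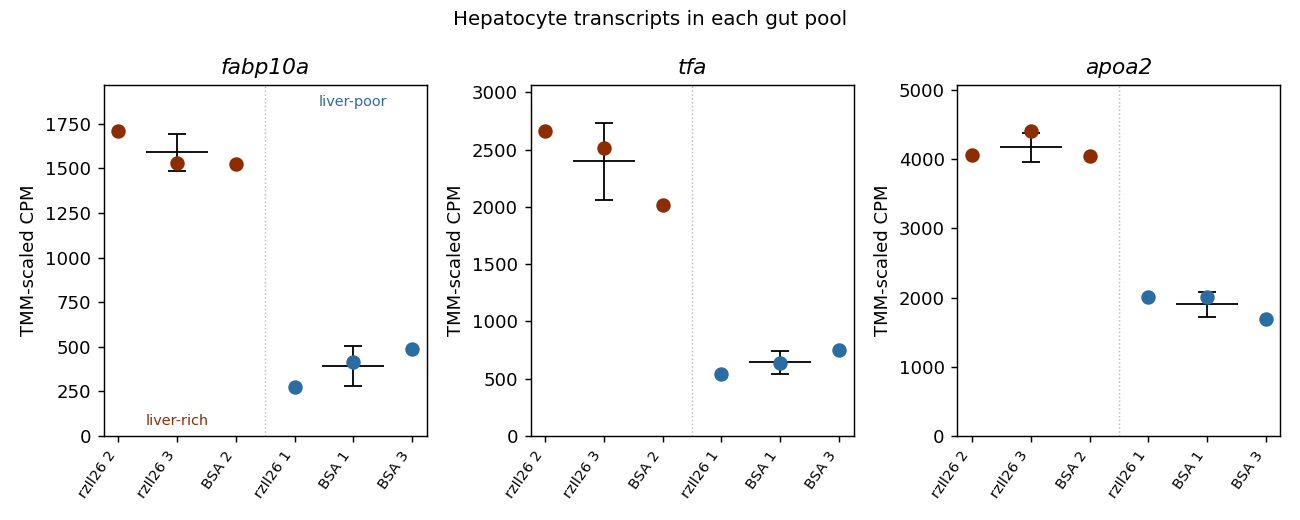
Level of 3 hepatocyte transcripts (y axis, CPM scaled by the trimmed mean of M values, TMM) in each gut pool (x axis, library), with liver-rich pools left of the dotted line and liver-poor pools right of it; the bars show the mean and SD of 3 pools. The liver-rich pools lie between 1525 and 1711 CPM for *fabp10a* and the liver-poor pools between 271.9 and 490.1 CPM. On the log2 scale *apoa2* has the smallest difference between the classes of the 3.

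A transcript was called liver-rich or liver-poor where it differed by at least 1 on the log2 scale and the classes did not overlap in any library. By this rule 162 transcripts were higher in liver-rich pools (1.53% of 10576) and 14 were lower (0.132%). Without the requirement on size, 494 (4.67%) were separated upward and 403 (3.81%) downward. The median of all transcripts was -0.01, so the excess upward was in the large differences. All 162 were higher in liver-rich pools inside each injection, which the rule on overlap fixes, with median differences of 1.70 inside the rzIl26 pools and 1.46 inside the BSA pools. The difference was between 1 and 1.5 for 69 of them, between 1.5 and 2 for 54, and at least 2 for 39, and 21 were at or above that of *fabp10a* itself. Together the 162 made up 34940 CPM in rzIl26 2, 36420 CPM in rzIl26 3 and 32690 CPM in BSA 2, against 12080 CPM in rzIl26 1, 13150 CPM in BSA 1 and 12280 CPM in BSA 3. Of the 162, 59 belonged to 1 of 7 lists of liver genes, 4 to a list of another tissue and 99 to none. The 162, the 59 and the 21 include *fabp10a*, which set the classes. Leaving out 1 library in turn gave 60 to 63 liver list genes called in place of 59, and 180 to 313 transcripts in place of 162, the most without BSA 2.

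Among transcripts that did not overlap and averaged at least 50 counts, the gene with the largest difference was *gck*, glucokinase, which starts glucose use in hepatocytes. It was at 79.6, 53.3 and 81.7 CPM in rzIl26 2, rzIl26 3 and BSA 2, and at 9.44, 5.42 and 5.11 CPM in rzIl26 1, BSA 1 and BSA 3, a difference of 3.40 (2.77 inside the rzIl26 pools and 3.93 inside the BSA pools). It also went beyond *fabp10a*, whose difference was 2.16. Unlike *fabp10a*, *gck* was higher in rzIl26 1 than in both liver-poor BSA pools, as were *cbln11* and *steap4*. *nr0b1*, a nuclear receptor that lacks a DNA-binding domain, had 27.2, 19.4 and 20.9 CPM against 3.70, 2.14 and 5.22 CPM, a difference of 2.57. *steap4*, a metalloreductase of the cell membrane, had 232.0, 268.8 and 77.7 CPM against 45.8, 10.7 and 15.4 CPM, a difference of 2.51. Its classes were separated, but its level also followed injection inside each class, and it is taken up again with the injection. *ldhbb*, a lactate dehydrogenase subunit, differed by 2.45, with 31.2, 22.9 and 25.3 CPM against 2.59, 6.04 and 8.47 CPM. Its difference was 3.31 inside the rzIl26 pools and 1.81 inside the BSA pools, and rzIl26 1 was its lowest library. *cbln11* differed by 2.66, and *si:ch73-15n24.1*, *si:ch1073-126c3.2*, *zgc:172051* and *zgc:174260* by 2.36 to 2.54. The last 3 of the 12 largest were carriers or inhibitors of plasma, namely *ahsg1*, a fetuin (2.33), *ttr*, the thyroid hormone carrier transthyretin (2.27), and *gc*, the vitamin D binding protein (2.27).

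Few transcripts were lower in liver-rich pools, and the sizes were smaller. Their number depended on the setting, with 24 to 48 in place of 14 when 1 library was left out (24 without BSA 1, 48 without BSA 2) and 8 with *fabp10a* as a continuous covariate. *cndp1*, a dipeptidase that cleaves carnosine, was at 4.72, 3.81 and 5.38 CPM in rzIl26 2, rzIl26 3 and BSA 2, and at 16.7, 8.44 and 8.83 CPM in rzIl26 1, BSA 1 and BSA 3, a difference of -1.37. Without rzIl26 1 that difference was -0.68. *sagb*, an arrestin, differed by -1.35 and *ncoa7a*, a nuclear receptor coactivator, by -1.11. Without rzIl26 1 these differences were -0.91 and -0.88. *hsp70.3*, an inducible heat shock chaperone with near-identical copies whose counts are uncertain for that reason, had 25.7, 19.2 and 20.5 CPM against 28.4, 113.6 and 79.8 CPM. Its difference of -1.29 lay in the liver-poor BSA pools, being -2.21 inside the BSA pools and -0.36 inside the rzIl26 pools. These 4 were the called transcripts that averaged at least 50 counts, and the other 10 of the 14 were below that depth. Among transcripts at that depth without overlap, the next 8 by size, which did not reach 1, were *atp1b3a*, *prkacba*, *adarb1a*, *slc16a12b*, *tsc22d3*, *pfkfb4b*, *alg8* and *pmaip1*, with differences of -0.88 to -0.62.

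A group of transcripts kept a nearly fixed ratio to *fabp10a* across the 6 libraries. Likeness was measured as the SD of the log2 ratio to *fabp10a*, over transcripts that averaged 50 counts or more. The closest was *serpind1*, heparin cofactor II, which inhibits thrombin, with an SD of 0.08. It was at 35.2, 37.3 and 35.1 CPM in the liver-rich and at 5.86, 9.01 and 10.95 CPM in the liver-poor libraries. The others of the 8 closest were the inter-alpha-trypsin inhibitor heavy chains *itih3a.1* and *itih3b.1*, and *cbln8*, *gc*, *habp2*, *pglyrp2* and *f7i*. *habp2* is a hyaluronan-binding serine protease of plasma, *pglyrp2* an amidase that cleaves peptidoglycan, and *f7i* belongs to the clotting factor VII family. The differences of the 8 between the classes ran from 1.95 to 2.27. The order of the liver-poor libraries was the same in each of the 8, with rzIl26 1 lowest, BSA 1 in the middle and BSA 3 highest, as it was in *fabp10a*. All 8 were chosen by their ratio to *fabp10a* in the same 6 libraries. The shared order follows largely from that choice, and the likeness is a description.

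The 7 lists of liver genes were then described, and they split into lists whose members were mostly higher in liver-rich pools and lists whose members were not.

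Among carriers and protease inhibitors of plasma, 17 of 36 tested genes were called higher, 22 were separated upward, and the median was 1.04. These counts include *fabp10a*, whose separation was fixed because it set the classes. The members named here were put into 2 groups, above and near zero, after their values were seen. In the first were *fabp10a*, *ahsg1*, *ttr*, *gc* and the inter-alpha-trypsin inhibitor chains at differences above 2, then *serpina7*, a thyroxine-binding globulin (2.02), *cp*, the copper carrier ceruloplasmin (1.83), *lipca*, hepatic lipase (1.82), *serpina1*, the elastase inhibitor antitrypsin (1.41), and *apoa1b*, the main protein of high-density lipoprotein (1.28). *apoa1b* had 11230, 11660 and 10950 CPM in liver-rich and 4806, 4742 and 4086 CPM in liver-poor libraries. *rbp4*, the retinol carrier, lay between the groups and was separated at 0.80. In the second group were lipoprotein genes that enterocytes also make, and which cells their transcripts came from was not tested. *apobb.1*, the apolipoprotein B of lipid export, had 17490, 22890 and 31440 CPM in liver-rich and 24880, 29420 and 23440 CPM in liver-poor libraries, a difference of -0.03, and the classes overlapped. *apoea* and *apoeb*, genes of apolipoprotein E, differed by -0.07 and -0.26 and overlapped as well. With these members included, the summed level of the list overlapped between the classes, at 51900 to 70640 CPM in liver-rich and 46620 to 58200 CPM in liver-poor pools. *apoc1*, *hamp* and *zgc:123103* had no counts.

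Blood clotting had the highest median of the lists, 1.4, with 11 of 15 tested genes called higher and 13 separated upward. The 3 chains of fibrinogen, which forms the clot, moved together. *fga* was at 1003, 943.9 and 654.8 CPM in rzIl26 2, rzIl26 3 and BSA 2, and at 250.5, 290.3 and 287.9 CPM in rzIl26 1, BSA 1 and BSA 3, a difference of 1.57. *fgb* and *fgg* differed by 1.59 and 1.55. In all 3 chains BSA 2 was the lowest of the liver-rich libraries, and the difference was larger inside the rzIl26 pools (1.84 to 1.96) than inside the BSA pools (1.18 to 1.35). *plg*, plasminogen, which dissolves clots, had 354.6, 346.9 and 316.7 CPM against 140.0, 139.2 and 128.0 CPM, a difference of 1.28 that was nearly equal inside both injections (1.32 and 1.25). *f2*, prothrombin, and *f10*, factor X, were separated at 0.98 and 0.41. *f7l* and *serpinf1* overlapped, with differences of 0.32 and -0.12. The list summed to 2668 to 3580 CPM in liver-rich and 1129 to 1192 CPM in liver-poor pools. *cpb2*, *f9a* and *f9b* had no counts.

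Complement, the plasma cascade that marks and lyses microbes, had a median of 1.34, with 13 of 19 tested genes called higher and 17 separated upward. *c9*, which forms the lytic pore, was the steadiest. It had 267.1, 267.4 and 265.6 CPM in liver-rich and 92.5, 84.9 and 89.9 CPM in liver-poor libraries, a difference of 1.57, with 1.53 inside the rzIl26 pools and 1.6 inside the BSA pools. *c3a.1*, the most abundant copy of the central component C3 in these counts, had 1110, 1120 and 738.4 CPM against 327.6, 276.8 and 239.6 CPM, a difference of 1.64. *c3a.6* and *c3a.3* differed by 1.47 and 1.86, and since the copies of C3 resemble each other, how reads were split among them is uncertain. *cfb*, factor B of the alternative pathway, had the largest difference in the list, 1.98. The 2 exceptions were *mbl2*, a mannose-binding lectin (-0.13), and *cfbl* (-0.20), which overlapped. The list summed to 1737 to 2330 CPM in liver-rich and 674.1 to 786.1 CPM in liver-poor pools.

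Enzymes of amino acid and one-carbon metabolism ran from -0.70 (*ass1*, an enzyme of arginine synthesis, which overlapped) to 2.14. The median was 0.41, with 12 of 34 tested genes called higher and 17 separated upward. The genes named here were picked after their values were seen. Enzymes of phenylalanine and tyrosine breakdown among those called were *pah*, phenylalanine hydroxylase (1.89), *tat*, tyrosine aminotransferase (2.1), *hpda*, which acts after it (2.14), and *hgd*, homogentisate dioxygenase (1.88), while *hpdb* and *fah*, the last step, were separated at 0.99 and 0.77. *hpda* was at 337.7, 328.5 and 279.4 CPM in liver-rich and at 48.2, 104.3 and 92.3 CPM in liver-poor libraries, with a difference of 2.79 inside the rzIl26 pools and 1.51 inside the BSA pools. Enzymes of histidine breakdown were called too, with *hal* at 1.52, *uroc1* at 1.75 and *amdhd1* at 1.49. *uox*, urate oxidase, differed by 2.08, and *agxtb*, an alanine-glyoxylate aminotransferase, by 1.4, with 1125, 966.8 and 995.7 CPM against 321.5, 486.2 and 449.0 CPM. Of the members with the most counts, *ahcy*, which hydrolyses adenosylhomocysteine, had 2630, 2677 and 3443 CPM in liver-rich and 2714, 3569 and 3056 CPM in liver-poor libraries (0.01), and it overlapped. *gldc* (-0.04) and *mat1a* (-0.09) overlapped as well, while *bhmt*, which remethylates homocysteine, was separated at 0.25. *arg1* had no counts.

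Of sugar and glycogen enzymes 4 of 13 tested genes were called higher, with a median of 0.14. They were *gck*, *ugp2a*, which makes the sugar donor for glycogen (1.83), *gys2*, the glycogen synthase of liver (1.24), and *sord*, sorbitol dehydrogenase (1.17). *pklr*, pyruvate kinase of liver and red blood cells, was separated at 0.74. It was at 1123, 1171 and 1628 CPM in liver-rich and at 678.9, 965.5 and 993.3 CPM in liver-poor libraries, and the difference was 0.76 inside the rzIl26 pools and 0.73 inside the BSA pools. Enzymes of glucose output overlapped between the classes. *pck1*, which starts glucose synthesis, differed by -0.29, and *g6pc1a.2*, which releases glucose, by -0.36.

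Enzymes and transporters of bile acids, sterols and xenobiotics centred on zero. The median was 0.01, and 2 of 33 tested genes were called higher, both carboxylesterases. *ces3* was at 197.1, 241.3 and 177.6 CPM in liver-rich and at 67.6, 67.3 and 51.8 CPM in liver-poor libraries (1.64), and *ces2a* differed by 1.61. The 4 genes with the most counts all overlapped, namely *cyp2y3*, a cytochrome P450 (0.05), *abcb4*, a transporter of the ABC family (-0.12), *abcc2*, an exporter of conjugates (0.00), and *gstr*, a glutathione transferase (-0.02). *abcc2* had 1002, 937.8 and 1024 CPM in liver-rich and 919.2, 1023 and 1143 CPM in liver-poor libraries. *cyp7a1*, the rate-limiting enzyme of bile acid synthesis, differed by 0.52 and overlapped.

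None of 23 tested liver transcription factors was called, a share near the 1.53% higher and 0.132% lower of all transcripts. The median was 0.02. *nr1h5*, a relative of the bile acid receptor, was the only member separated, at 0.71, a share near the 4.67% of all transcripts separated upward. It had 14.63, 10.17 and 13.35 CPM in liver-rich and 6.79, 8.54 and 9.61 CPM in liver-poor libraries. *hhex* and *foxa2*, which act in liver formation, differed by 0.60 and 0.55 but overlapped. *xbp1*, a factor of secretory cells, differed by 0.05, *cebpa* by 0.17, *cebpb* by 0.15, and *cebpd* by -0.02. *hnf4a* differed by -0.04 at a mean of 13.5 counts, and what size of difference can be seen at that low depth was not tested.

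**Figure D2:**
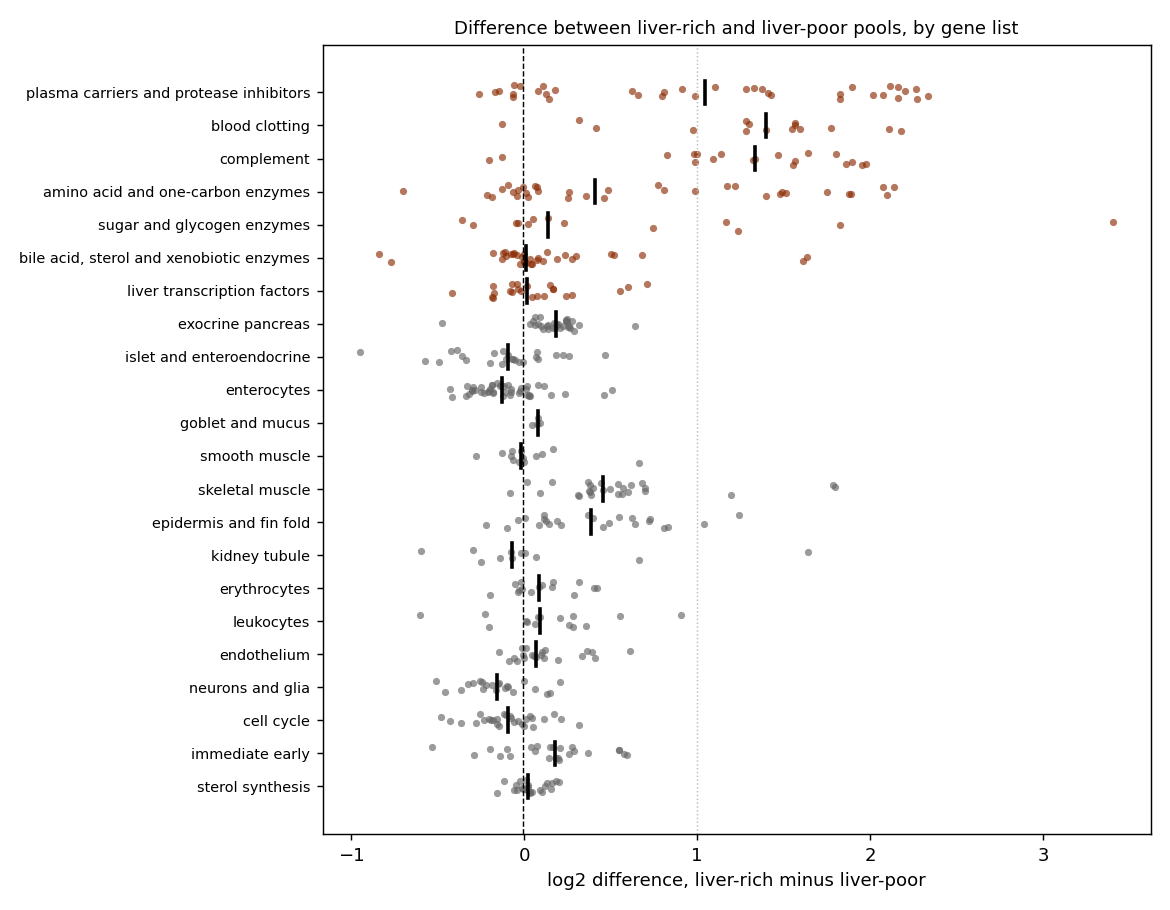
Log2 difference between liver-rich and liver-poor pools (x axis) for each tested gene (points) of 22 lists (y axis), with liver lists in brown and other lists in grey; black bars show list medians, the dashed line the median of all transcripts (-0.01) and the dotted line a difference of 1. Clotting (1.4), complement (1.34) and plasma carriers (1.04) have the highest medians, and the plasma carriers and amino acid enzymes have members both near 0 and above 1.

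**Figure D3:**
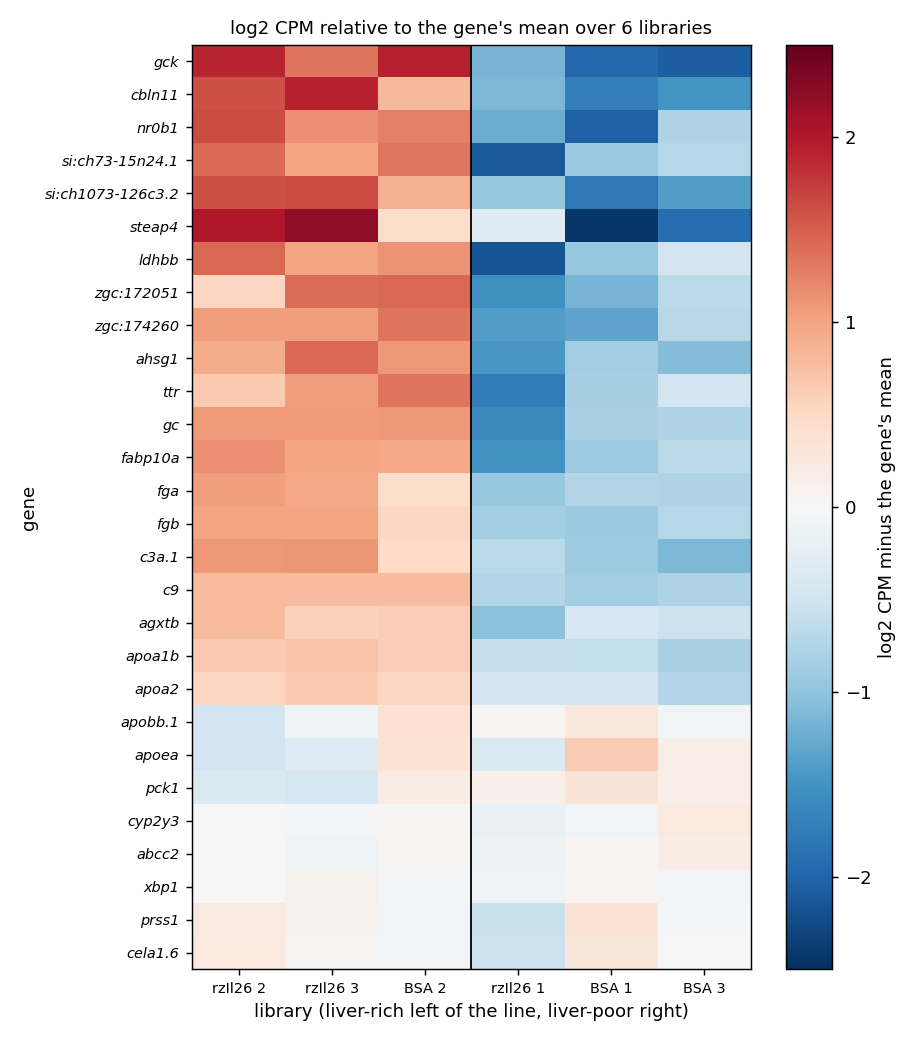
Level of 28 genes (y axis) in each library (x axis) as log2 CPM minus the gene's mean over the 6 libraries, red for higher and blue for lower, with liver-rich pools left of the line. The upper 20 genes, *gck* to *apoa2*, change colour at the line, while *apobb.1* to *xbp1* and the pancreatic *prss1* and *cela1.6* do not.

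Markers of other tissues that a dissected gut could carry were examined in the same way. Digestive enzymes of the exocrine pancreas, which lies beside the liver and gut, were not separated in any of 31 tested genes. Of all transcripts 4.67% were separated upward and 3.81% downward. They summed to 78780, 70190 and 62710 CPM in rzIl26 2, rzIl26 3 and BSA 2, and to 45310, 85060 and 65320 CPM in rzIl26 1, BSA 1 and BSA 3. The highest and the lowest library were thus both liver-poor. The median was 0.19, but it was 0.73 inside the rzIl26 pools and -0.29 inside the BSA pools, and without rzIl26 1 it was -0.33. *prss1*, a trypsin, had 12970, 11850 and 10490 CPM in liver-rich and 7521, 13990 and 10800 CPM in liver-poor libraries, and the elastase *cela1.6* and the trypsins *prss59.1* and *prss59.2* had the same order. *cpb1* and *ctrb.2* had no counts.

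Skeletal muscle genes were in part higher in liver-rich pools. Of 27 tested genes 26 had a positive difference, and the median was 0.46, against -0.01 for all transcripts. Called higher were 3 of the 27, where 1.53% of all transcripts were. They were *tnni2b.2*, a fast troponin (1.80), *myhz1.2*, a fast myosin heavy chain (1.79), and *cacna1sb*, a calcium channel subunit (1.19). *myhz1.2* was at 64.6, 193.3 and 154.8 CPM in liver-rich and at 39.7, 28.2 and 56.3 CPM in liver-poor libraries. The list summed to 3061 to 5070 CPM in liver-rich and to 2288 to 3530 CPM in liver-poor pools, which overlapped, and its median was 0.97 inside the rzIl26 pools and 0.06 inside the BSA pools, and -0.0034 without rzIl26 1. *actn3a* and *pvalb3* were at 0. Epidermis and fin fold genes had a median of 0.38, with 0.52 inside the rzIl26 pools and 0.00 inside the BSA pools, and 2 of 24 were separated upward, where 4.67% of all transcripts were, namely *tp63* (0.81) and *icn2* (0.73). No marker of this list was at 0, and it summed to 4602 to 5209 CPM in liver-rich and 4575 to 5095 CPM in liver-poor pools. The part of muscle and epidermis in the liver differences was not tested.

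The gut's own cells had small median differences between the classes. Enterocyte genes had a median of -0.13, with -0.26 inside the rzIl26 pools and 0.005 inside the BSA pools. None of 44 was called, and 2 were separated downward, a share near the 3.81% of all transcripts. They were *vil1*, the brush border protein villin (-0.13), and *cdx1b*, an intestinal transcription factor (-0.18). *vil1* had 3042, 3170 and 2872 CPM in liver-rich and 3363, 3198 and 3197 CPM in liver-poor libraries. Smooth muscle (-0.02), goblet cells and mucus (0.08), islet and enteroendocrine cells (-0.09), endothelium (0.07), leukocytes (0.09), erythrocytes (0.08), neurons and glia (-0.16), cell cycle (-0.09), immediate early genes (0.18) and sterol synthesis (0.02) had medians of -0.16 to 0.18 and no called gene. Of all transcripts 4.67% were separated upward and 3.81% downward. Separated without being called were 3 of 15 leukocyte genes, all upward, *lyz*, a lysozyme, at 0.91 and *fcer1gl* and *srgn* at 0.28 each. So were 3 of 28 cell cycle genes, all downward, *pola1* (-0.48), *tyms* (-0.43) and *mcm6* (-0.25). In the other 8 of these lists at most 2 genes were separated. In the kidney tubule list (-0.07) *slc22a2*, an organic cation transporter, was called at 1.64, with 39.95, 39.65 and 32.1 CPM against 9.69, 15.5 and 10.9 CPM, while the other 10 tested genes were not.

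**Figure D4:**
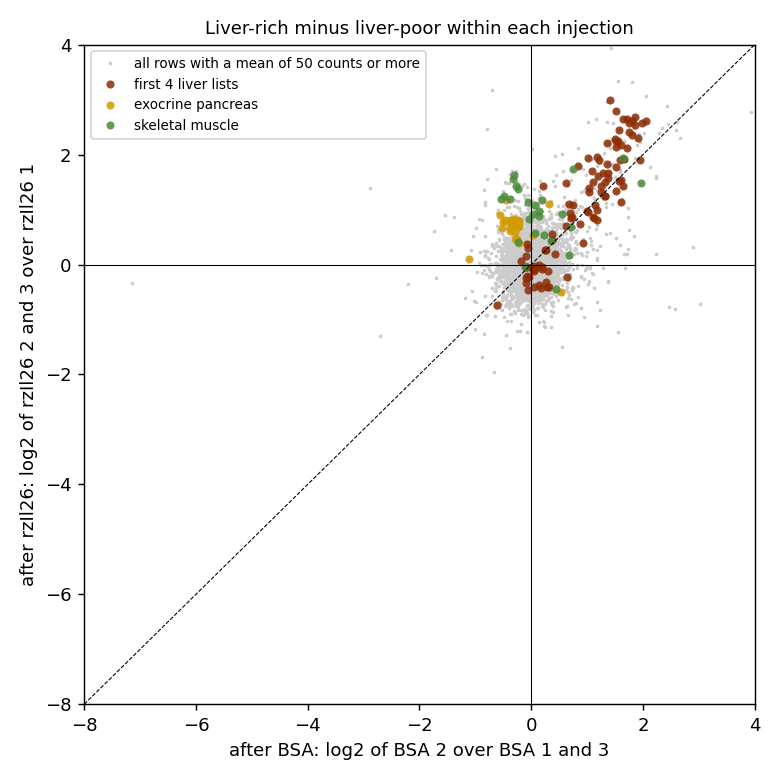
Log2 difference between liver-rich and liver-poor pools inside the rzIl26 pools (y axis) against that inside the BSA pools (x axis), each point a transcript with a mean of 50 counts or more; the dashed line marks equal differences. Liver genes of the first 4 lists (brown) lie toward the upper right or near the origin, while pancreatic genes (yellow) have medians of 0.73 after rzIl26 and -0.29 after BSA.

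Whether the class difference depended on injection was tested by the interaction of class and injection in edgeR's quasi-likelihood test. No transcript passed after Benjamini-Hochberg adjustment (0% of 10576), and 550 (5.20%) had an unadjusted p under 0.05. limma-voom also called 0, and DESeq2 called 17, of which 7 were pancreatic genes, 1 (*hpda*) a liver gene and 6 genes of other lists. The design had 1 liver-poor rzIl26 pool and 1 liver-rich BSA pool, so each interaction rests on single libraries. Unadjusted p was under 0.05 for 23 of 104 tested genes in the first 4 liver lists (22.1%), among them *fabp10a*, which set the classes. The same held for 22 of 31 pancreatic genes, 11 of 27 muscle genes and 15 of 44 enterocyte genes.

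With liver class held fixed, 750 transcripts rose after rzIl26 (7.09%) and 752 fell (7.11%) at an adjusted p under 0.05 in edgeR's quasi-likelihood test. Leaving class out of the fit gave 980 (9.27%) and 1015 (9.60%), and 1416 transcripts were called in both fits. These counts rested on single pools. They were 7 and 9 without rzIl26 1, 72 and 41 without BSA 2, 227 and 212 without BSA 1, and 406 and 334 without rzIl26 2. They also depended on scaling, since library totals alone shifted the median by 0.17 and gave 1601 higher and 291 lower.

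Among the 173 tested genes of the liver lists, 5 rose (2.89%) and 30 fell (17.3%) after rzIl26 with class held fixed, and 5 and 28 without class. Scaled by library totals alone, 16 rose and 19 fell. Without rzIl26 1, 0 rose and 0 fell, and without BSA 2, 0 rose and 6 fell. Of all transcripts 7.09% rose and 7.11% fell with class held fixed, and the fall was not particular to liver lists. Among enterocyte genes 11 of 44 fell and 4 rose, and among sterol synthesis genes 7 of 24 fell and 0 rose. In the first 4 liver lists 11.5% fell and 0.962% rose. Among the liver lists the fall was most frequent in bile acid, sterol and xenobiotic enzymes, where 11 of 33 fell and 1 rose. The median class difference of this list was 0.01, with members from -0.84 (*cyp2x9*) to 1.64 (*ces3*). *cyp7a1* was at 135.7 and 229.6 CPM after rzIl26 and at 490.1 CPM after BSA in liver-rich pools, and at 123.8 CPM after rzIl26 and 394.5 and 306.7 CPM after BSA in liver-poor pools. It fell by 1.46 ± 0.21 (SE) with class fixed (edgeR, adjusted p = 0.00824), being lower in every rzIl26 pool than in every BSA pool. *cyp8b1.1*, which sets the ratio of bile acids, fell by 0.70 ± 0.09 (edgeR, adjusted p = 0.00693). The aldehyde oxidase *aox6* fell by 0.72 (adjusted p = 0.00991) and the dehydrogenase *adh5* by 0.52 (0.0122), both by edgeR. Each of these 4 lost its call without rzIl26 1 and without BSA 2, with adjusted p of 0.0761 to 0.118, and kept its direction.

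The 162 transcripts called liver-rich were chosen for a large class difference, and more rzIl26 pools than BSA pools were liver-rich, so leaving class out raises their rzIl26 difference by construction. Their median rzIl26 difference was -0.10 with class fixed and 0.48 without it, and *fabp10a*, which set the classes, was at -0.32 and 0.53. These values are a description. *tfa* differed after rzIl26 by 0.01 with class fixed (edgeR, adjusted p = 0.983) and by 0.75 without (0.448), and *apoa2* by 0.09 (0.52) and 0.44 (0.471). Neither passed in either fit, but *tfa* passed at 0.29 with *fabp10a* as a continuous covariate (edgeR, adjusted p = 0.0194) and *apoa2* at 0.26 with library totals (0.044). *pklr* fell by 0.52 ± 0.07 (SE) with class fixed (edgeR, adjusted p = 0.00749), against -0.27 without class (0.512). Inside liver-rich pools it was at 1123 and 1171 CPM after rzIl26 and 1628 CPM after BSA, and inside liver-poor pools at 678.9 CPM after rzIl26 and 965.5 and 993.3 CPM after BSA. *ttr* fell by 0.77 (edgeR, adjusted p = 0.0385), where without class it was at 0.05 (0.968). Its call was lost at -0.44 with *fabp10a* as a continuous covariate (0.0887) and at -0.60 with library totals (0.0778).

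*steap4* rose by 1.75 ± 0.15 (SE) with class fixed (edgeR, adjusted p = 0.00351). Within the liver-rich class it was at 232.0 and 268.8 CPM after rzIl26 and 77.7 CPM after BSA, and within the liver-poor class at 45.8 CPM after rzIl26 and 10.7 and 15.4 CPM after BSA. Without class its log2 difference was 2.41 but the adjusted p was 0.0999, and BSA 2 was above rzIl26 1. *c3a.1* and *cbln11* behaved in the same way, with differences of 0.47 (adjusted p = 0.0232) and 0.75 (0.0233) with class fixed, and 1.03 (0.243) and 1.61 (0.245) without, all by edgeR. *steap4*, *pklr*, *ttr*, *c3a.1* and *cbln11* each lost their call without rzIl26 1, and all but *steap4* without BSA 2. In addition *cbln11* lost it without BSA 1, *ttr* without BSA 1 or rzIl26 2, and *c3a.1* without rzIl26 2 or rzIl26 3, so that 2 of 6 such fits called *ttr* and *c3a.1*.

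**Figure D5:**
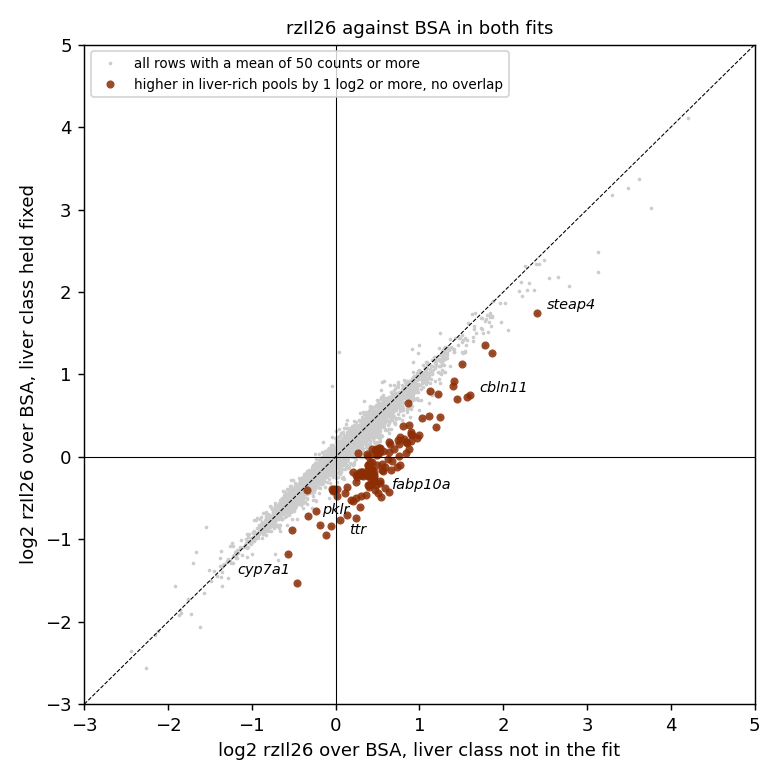
Log2 difference of rzIl26 over BSA with liver class held fixed (y axis) against the same difference without class (x axis) for transcripts with a mean of 50 counts or more (grey); brown points are those called liver-rich and the dashed line marks equality. The brown points lie below the line by the way they were chosen, since they have a large class difference and more rzIl26 than BSA pools were liver-rich; *steap4* is at 1.75 with class and 2.41 without.

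The genes that the study names for the injection were checked for liver content. *myca*, a Myc transcription factor that drives proliferation, was at 15.3 and 15.1 CPM after rzIl26 and 41.4 CPM after BSA in liver-rich pools, and at 18.3 CPM after rzIl26 and 39.5 and 38.4 CPM after BSA in liver-poor pools. Its class difference was -0.08, and it fell by 1.27 ± 0.11 (SE) after rzIl26 with class fixed (edgeR, adjusted p = 0.00351) and by 1.29 without (0.00312). *ercc1*, a nuclease subunit of DNA repair, fell by 1.02 (0.00785) and had a class difference of -0.08. *ccnh*, cyclin H, had an rzIl26 difference of -0.53 with class fixed (edgeR, adjusted p = 0.0597) and -0.50 without class (0.0399), and its class difference was 0.09. *brca2*, *rad51b* and *il20ra*, an IL-26 receptor chain, differed after rzIl26 by -0.57, -0.45 and -0.31 with class fixed. Their adjusted p were 0.0682, 0.194 and 0.105 (edgeR). For *il20ra* the alternative fits gave -0.42 to -0.15. It passed only without rzIl26 3 (edgeR, adjusted p = 0.045) and with the replicate block and no class (0.0361). By qRT-PCR the paper reports strong induction of *il20ra* in wild-type guts by the injected cytokine. The direction here was the opposite, and the reason was not tested. *myca* kept its call without any one library, and *ercc1* lost it without rzIl26 1 (0.0662) and without BSA 2 (0.0999).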

How the data were processed

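RNA was measured in 6 pools of dissected larval gut by stranded poly(A) RNA-seq, sequenced as paired-end reads. The authors deposited raw counts per RefSeq transcript, aligned to danRer11. The aligner, the counting tool and the treatment of reads shared by transcripts are not given in the sources used here, so counts of near-identical copies are uncertain. Of 16134 transcripts 15776 matched a gene symbol in RefSeq's gene table for GRCz12tu, from which nothing but names was taken. Of the genes matched, 622 had 2 or more transcripts. For the gene lists and the markers the transcript with most counts was used. Counts over all transcripts and the rankings by class difference or by likeness to *fabp10a* kept every transcript that passed the filter.

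Groups and replicate numbers came from the sample titles, and liver classes from *fabp10a*. The classes, the gene lists and the named genes were chosen with earlier results of these data known. Differences were fitted by edgeR 4.0.16 under R 4.3.3, using filterByExpr with a minimum count of 10, TMM scaling and the quasi-likelihood test on injection and liver class, with Benjamini-Hochberg adjustment and a threshold of 0.05. Class differences are coefficients of that fit and have no p-value. CPM values are scaled by TMM. P-values measure the spread between libraries, and the biological coefficient of variation was 0.135. Named genes were the 3 markers, the 4 genes with most counts of each liver list and 2 of each other list (4 for pancreas), the 12 highest and 12 lowest class differences without overlap and at least 50 mean counts, the 8 closest to *fabp10a*, the 6 liver list genes with the lowest injection p and the genes the study names. Other genes in the text were picked from the lists after their values were seen. Some genes that the rule names are not reported here.

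The scripts were tested on simulated counts of 10472 transcripts, with 194 changed by 1 on the log2 scale between injections. The injection test with class fixed recovered 130 of them (67%) and called 13 unchanged ones. Alternatives were RLE factors, library totals, other filters, DESeq2 1.42.0, limma-voom (limma 3.58.1), *fabp10a* as a continuous covariate, no class, a replicate block, other cut-offs and leaving out each library. Figures were drawn with matplotlib 3.10.9.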

Additional observations from a re-analysis of the deposited data

Results flagged for a closer look

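Of 23 lists, 4 had a summed level that was higher in liver-rich pools of 1 injection and lower in those of the other, with no overlap inside either injection. Inside each injection 1 pool stands against 2, so such an order arises easily, and 4 of 23 lists is not read as an excess. The share of all transcripts with this pattern was not counted, and the difference between the injections was not tested for these sums. Exocrine pancreas summed to 78780 and 70190 CPM in rzIl26 2 and 3 against 45310 CPM in rzIl26 1 (log2 difference 0.72), and to 62710 CPM in BSA 2 against 85060 and 65320 CPM in BSA 1 and 3 (-0.26), a gap of 0.979 between the injections. Sugar and glycogen enzymes went the other way, at -0.20 after rzIl26 and 0.14 after BSA (gap -0.341), as did sterol synthesis at -0.16 and 0.28 (gap -0.44) and kidney tubule genes at -0.24 and 0.03 (gap -0.267). The kidney tubule sums after BSA lay close together, at 4408 CPM in BSA 2 against 4386 and 4265 CPM in BSA 1 and 3. Each of the 4 lists rests on rzIl26 1 and BSA 2 as the only liver-poor rzIl26 pool and the only liver-rich BSA pool.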

How the results depend on the processing

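RLE factors, library totals, DESeq2 and limma-voom left the counts between the classes within 1.5 times (138 to 169 higher among these, the stricter filter and the block). Without a filter 260 transcripts were higher and 65 lower, with at least 10 counts in every library 7 were lower, with *fabp10a* as a continuous covariate 8, and without the rule on overlap 31. At a log2 difference of 0.58 there were 271 higher and 51 lower, and at 2 there were 39 and 0. Leaving out 1 library gave 180 to 313 higher and 24 to 48 lower, and fewer libraries make separation easier by construction. The median of the plasma carriers was 0.93 with the continuous covariate. Leaving out 1 library gave medians of 1.205 to 1.502 for clotting, 1.19 to 1.53 for complement, 0.0084 to 0.273 for sugar enzymes and -0.040 to 0.090 for bile acid and xenobiotic enzymes.

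After rzIl26, library totals gave 1601 higher and 291 lower, and leaving out 1 library gave 7 to 631 higher and 9 to 633 lower. DESeq2 called 17 interactions, and the other fits that could be made called 0. Without BSA 2 or rzIl26 1 no interaction could be fitted. The cause of these shifts was not tested. Not called in the fit with class, *fabp10a* turned to 0.53 without class and to 0.39 with the block and no class, with -0.740 to 0.088 when 1 library was left out, and *tfa* lay between -0.35 and 0.36 when 1 library was left out. *ttr* was at 0.051 without class. Of 475 alternative values for single genes between the classes 419 moved by less than the spread between libraries and 0 of those called changed sign, while *prkacba*, not called, turned to 0.13 with the replicate block.

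Whether replicate numbers pair the libraries could not be settled. The deviations of same-numbered libraries correlated at 0.31, 0.11 and 0.01 for numbers 1, 2 and 3. rzIl26 1 and rzIl26 2 correlated best with the BSA library of the same number, while rzIl26 3 correlated best with BSA 2 (0.19). The libraries numbered 1 were both liver-poor and those numbered 2 both liver-rich, so pairing and class cannot be told apart there. Only number 3 held both classes, so with a replicate block the class difference rests on rzIl26 3 against BSA 3. With a replicate block beside class, 406 transcripts were higher and 279 lower after rzIl26, *adh5* and *c3a.1* were not called after rzIl26 (edgeR, adjusted p = 0.0508 and 0.094), 28 were lower in liver-rich pools, and the list medians were 1.31 for plasma carriers, 0.65 for amino acid enzymes, 0.40 for sugar enzymes and 0.10 for bile acid and xenobiotic enzymes. With 1 or 2 pools per injection and class, the number of libraries limits the precision, and low counts limit the rarest transcripts as well.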

Other observations

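Of the 162 transcripts higher in liver-rich pools, 99 were in no list. Those named here were chosen after their values were seen. Several encode further plasma or hepatocyte proteins. *asgrl1*, of the asialoglycoprotein receptor family, was at 24.3, 29.9 and 29.8 CPM in rzIl26 2, rzIl26 3 and BSA 2, and at 4.38, 8.28 and 8.37 CPM in rzIl26 1, BSA 1 and BSA 3, a difference of 2.18. *crp3* and *crp4*, of the C-reactive protein family, differed by 2.11 and 1.54. *cetp*, which exchanges lipids between lipoproteins, differed by 1.55, *hao1*, an oxidase of glycolate, by 1.25, and *leg1.1*, a secreted protein of liver development in zebrafish, by 1.41. *tfr2* and *hjv*, which take part in iron sensing by hepatocytes, differed by 1.89 and 1.09, the second at a mean of 19.3 counts.

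Some secreted signals were higher in liver-rich pools as well. *fgf21*, a hormone of the fasting liver in mammals, was at 14.08, 5.603 and 4.65 CPM in rzIl26 2, rzIl26 3 and BSA 2, and at 4.32, 1.198 and 1.446 CPM in rzIl26 1, BSA 1 and BSA 3, a difference of 1.46. *ebi3*, a cytokine subunit, differed by 1.92, with 19.8, 14.7 and 15.6 CPM against 5.55, 2.40 and 4.39 CPM. *il34*, a ligand of the Csf1 receptor, differed by 1.35, with 36.8, 31.6 and 18.0 CPM against 15.4, 5.26 and 6.77 CPM, and it also rose by 1.13 after rzIl26 with class fixed (edgeR, adjusted p = 0.00785, and 0.0735 without class), a call held in 5 of 6 fits that left out 1 library and lost without rzIl26 1 (0.0954). *il6* differed by 1.01 at a mean of 23.3 counts, with 1.67, 2.39 and 1.26 CPM against 1.23, 0.47 and 0.46 CPM. Its classes barely separated, at 1.26 CPM in BSA 2 and 1.23 CPM in rzIl26 1. Inside each class *il6* and *fgf21* were higher in every rzIl26 pool than in every BSA pool, so their levels also followed injection.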
